A study of Sus scrofa with 26 samples.

Results

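Large White pigs kept at 24 °C, near thermal comfort (TN), were compared with Large White pigs exposed to heat (HS) for the transcript levels of their subcutaneous adipose tissue (SCAT), the dorsal backfat. The arrays were chosen by the breed and temperature in the sample titles, which gave 4 TN and 5 HS arrays, 9 of the 26 in the series, with 1 animal on each. The remaining arrays came from Creole pigs (3 TN and 5 HS) and from F1 pigs (4 TN and 5 HS), and served here for the shared estimate of the spread and for setting the Large White (LW) changes beside those of the other breeds. All animals were castrated male growing pigs raised in Guadeloupe with free access to feed. HS pigs are labelled 30 °C, while the series description states 32 °C, held for 5 days. TN pigs were slaughtered before the temperature rose and HS pigs after it, so that temperature, slaughter day and age at slaughter cannot be told apart, and each pen held pigs of 1 temperature. The animals came from blocks of littermates. Their pen, litter, age, slaughter day and feed intake are not in the labels, and p-values therefore measure the spread between these animals only.

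Adipose tissue is the main site in the pig where new fatty acids are built from carbohydrate. Citrate leaves the mitochondria and is split to acetyl-CoA, which is turned into fatty acids by acetyl-CoA carboxylase and fatty acid synthase with NADPH as the reductant, and the products are elongated and desaturated before they are stored as triglyceride. NADPH also feeds the enzymes that reduce quinones and oxidised proteins. In heat, cells are known to call on chaperones, which refold proteins, and on the proteasome, which degrades those that cannot be refolded.

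Levels are log2 values of the quantile-normalized spot intensity, so that a change of 1 is a doubling, and no level of a probe is set against that of another. In all 26 arrays between 68.51% and 76.58% of the 60306 spots were well above background. In the LW arrays this share was 72.5% ± 1.2 (SD, n = 5) for HS and 71.7% ± 1.56 (SD, n = 4) for TN, a difference of 0.794 percentage points (two-sided exact permutation test, p = 0.381). Each LW array correlated more closely with its own group than with the other group, although for HS replicate 5 the mean correlations were as close as 0.9883 and 0.9882. Of 10 adipocyte markers, 8 were tested and all of these were well above background on every LW array. None of the 8 passed the test between HS and TN, 5 lay below 0, and their median change was -0.14, or -0.29 with the 75th percentile scaling and -0.08 with slide as a block. In bulk tissue, fewer cells of a type and less RNA per cell cannot be told apart.

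The genes that fell in LW backfat included ELOVL6 and SCD of fatty acid synthesis, ME1, PGD and TKT of NADPH supply, ETFDH and CS of the mitochondria, and 6 of 30 proteasome subunits. The genes that rose were fewer, and myelin genes were among the largest rises. In the limma fit over all 26 arrays, 678 of 44703 probes passed an adjusted p of 0.05, which is 1.52% of those tested. Of these, 184 were higher in HS (0.412%) and 494 were lower (1.11%). The median size of a called change was 0.52 with a median SE of 0.114, the arrays did not overlap at 610 of them (8.04% of all probes did not), and 67 probes had fallen and 22 had risen by more than 1. Taking for each of 9957 named genes the probe with the highest mean level, 146 genes passed (1.47%), of which 51 were higher (0.512%) and 95 lower (0.954%). Changes below 0 made up 48.8% of all genes, and 16.7% of probes and 18.0% of genes had an unadjusted p under 0.05. The other 244 probes of the called genes had the same direction in 229 cases, and 93 were called in that direction. They read the same genes on the same arrays, and some repeat a sequence, so they are no independent check. The same share over all genes was not taken.

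The calls depended on which animal was left out, on the slides and on the spread shared with the other breeds. In the LW arrays fitted alone, 88 of the 146 genes passed. All 146 genes kept their direction whichever array was left out, but the number of the 146 still past the threshold was 22 without LW TN replicate 2, 35 without TN replicate 3, 44 without HS replicate 2, 45 without HS replicate 4, 62 without TN replicate 4, 66 without HS replicate 3, 80 without HS replicate 1, 89 without TN replicate 1 and 127 without HS replicate 5. Without any 1 of the 26 arrays, 15 genes still passed: C2H5orf15, CMTM5, ETFDH, FAF2, INHBA, LEMD2, LOC100513601, NQO1, PGD, PIR, PSMA1, PSMB5, STAR, TSNAX and TXNL1. With slide as a block 114 probes (0.255%) and 20 genes (0.201%) passed, and 17 of these were among the 146 genes, including BHLHE41, MAL, MBP, NQO1, PGD, PMP2, PSMB5, PUSL1, SRXN1 and STAR. On the slides that held both LW groups, 677 and 672 of the 678 called probes had the same direction as in the whole set, against 76.38% and 70.28% of all probes, but the probes were selected on a set that includes these arrays, so the 2 counts are no independent check. In that comparison 3 HS arrays stood against 2 TN arrays, and 8 probes passed.

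Of the 12 genes of de novo lipogenesis, ELOVL6 and SCD fell, none rose, and the median change was -0.67 against 0.01 over all genes. ELOVL6, the elongase that extends palmitate, read 15.40, 15.18, 14.87 and 15.06 in the TN arrays and 13.49, 14.42, 13.41, 13.79 and 13.80 in the HS arrays. All HS arrays lay below all TN arrays, and the change was -1.35 ± 0.308 (SE, adjusted p = 0.0284), a 2.54-fold lower level. SCD, the desaturase that makes oleate from stearate, read 18.71, 18.64, 18.35 and 18.52 in TN and 16.83, 17.84, 16.95, 17.64 and 17.56 in HS. Here too the groups did not overlap, HS replicates 1 and 3 being the lowest, and the change was -1.19 ± 0.291 (adjusted p = 0.0395). All 11 SCD probes were lower in HS and 9 of them were called, with changes from -1.65 to -1.06.

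The earlier steps of the pathway did not pass the test in the fit over all 26 arrays, although ACLY moved by as much. ACLY, which splits citrate, was at 17.71 ± 0.116 in TN and 16.19 ± 0.489 in HS, without overlap, and its change was -1.52 (adjusted p = 0.101). ACACA, the carboxylase, changed by -0.83 (adjusted p = 0.251) and SLC25A1, the citrate carrier, by -1.0 (adjusted p = 0.098). ACACB, ELOVL1, FADS1 and FADS2 lay between -0.02 and 0.11. FASN, the synthase itself, read 18.64, 18.63, 18.63 and 18.60 in TN and 18.34, 18.34, 17.96, 18.38 and 18.27 in HS, with no overlap and a change of -0.37 (adjusted p = 0.055). The highest level on every array was 19.31, so that this probe sat near the upper end of the scale. The SCD probe whose levels are given above sat there too in TN. The other 4 FASN probes changed by -1.11 to -0.80, and none of the 5 was called in the fit over all 26 arrays. Neither call of this list remained on leaving out any 1 TN array or HS replicate 1, 3 or 4, and 1 remained without HS replicate 2. With slide as a block 0 were called (adjusted p = 0.0887 for ELOVL6 and 0.0665 for SCD). In the LW arrays fitted alone 6 of the 12 genes were called. Among them were ACLY (adjusted p = 0.0114) and FASN (adjusted p = 0.0489), beside ELOVL6 (adjusted p = 0.0119) and SCD (adjusted p = 0.02075). The list's score, the mean of its members relative to all 26 arrays, was 0.00 to 0.15 in TN and -0.76 to -0.34 in HS.

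NADPH supply fell at 3 of 9 genes and rose at none, with a median change of -0.50. ME1, the cytosolic malic enzyme, read 13.91, 14.56, 14.73 and 13.80 in TN and 12.36, 12.24, 11.83, 12.59 and 13.01 in HS. The lowest TN array exceeded the highest HS array by less than the range within either group, and the change was -1.84 ± 0.404 (adjusted p = 0.0225), a 3.59-fold lower level. PGD, the second NADPH-forming step of the pentose phosphate pathway, read 15.47, 15.44, 15.56 and 15.48 in TN and 14.62, 14.69, 14.56, 14.91 and 14.82 in HS. Its groups were far apart compared with their spread, the change was -0.77 ± 0.135 (adjusted p = 0.00832), and with slide as a block it was the only one of the list to pass (adjusted p = 0.0462, against 0.0883 for ME1 and 0.111 for TKT). TKT, the transketolase of the same pathway, went from 17.28 ± 0.172 to 16.83 ± 0.204 (change -0.45, adjusted p = 0.0407), and all 3 of its probes were called. IDH1, the cytosolic isocitrate dehydrogenase, changed by -0.54 (adjusted p = 0.0653). The number called in this list was 4 without HS replicate 5 and 1 without HS replicate 2 or 3 or without TN replicate 2 or 3.

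Of 35 antioxidant enzymes tested, NQO1 and SRXN1 fell, none rose, and the median of the list was -0.09, or -0.25 with the 75th percentile scaling and -0.06 without HS replicate 3. NQO1, which reduces quinones, was at 9.61 ± 0.286 in TN, the lowest TN array reading 9.31, and read 8.69, 8.64, 8.37, 8.21 and 8.66 in HS. No HS array reached the TN range, and the change was -1.10 ± 0.154 (adjusted p = 0.00146), with all 3 probes called between -1.19 and -1.10. SRXN1, the sulfiredoxin that restores overoxidised peroxiredoxins, read 8.89, 8.37, 8.08 and 8.27 in TN and 7.35, 7.51, 7.60, 7.35 and 7.44 in HS. Its HS arrays were close together below all TN arrays, and the change was -0.95 ± 0.191 (adjusted p = 0.0155). Its other probe changed by -0.23. AKR1C1, an aldo-keto reductase, went from 12.67 ± 0.232 to 11.53 ± 0.439 (change -1.14, adjusted p = 0.0177), but 3 of its 5 probes lay above 0. AKR1C1 has near-identical relatives, so that its value is uncertain. With slide as a block NQO1 (adjusted p = 0.0251) and SRXN1 (adjusted p = 0.0462) still passed. Without TN replicate 2, 1 of the list was called. One probe each of NQO1, TKT and AKR1C1 is shown to give a stretch of transcript that the array read. For NQO1 and TKT it is another probe than the one whose levels are given above, and each has a reading frame without a stop codon:
NQO1 A_72_P553981: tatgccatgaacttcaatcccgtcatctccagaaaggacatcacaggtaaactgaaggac
TKT A_72_P177501: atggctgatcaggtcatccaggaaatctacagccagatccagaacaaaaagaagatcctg
AKR1C1 O8059: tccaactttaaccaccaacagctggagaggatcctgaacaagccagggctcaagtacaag
On these probes NQO1 changed by -1.19 (adjusted p = 0.00146) and TKT by -0.71 (adjusted p = 0.021).

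**Figure D1:**
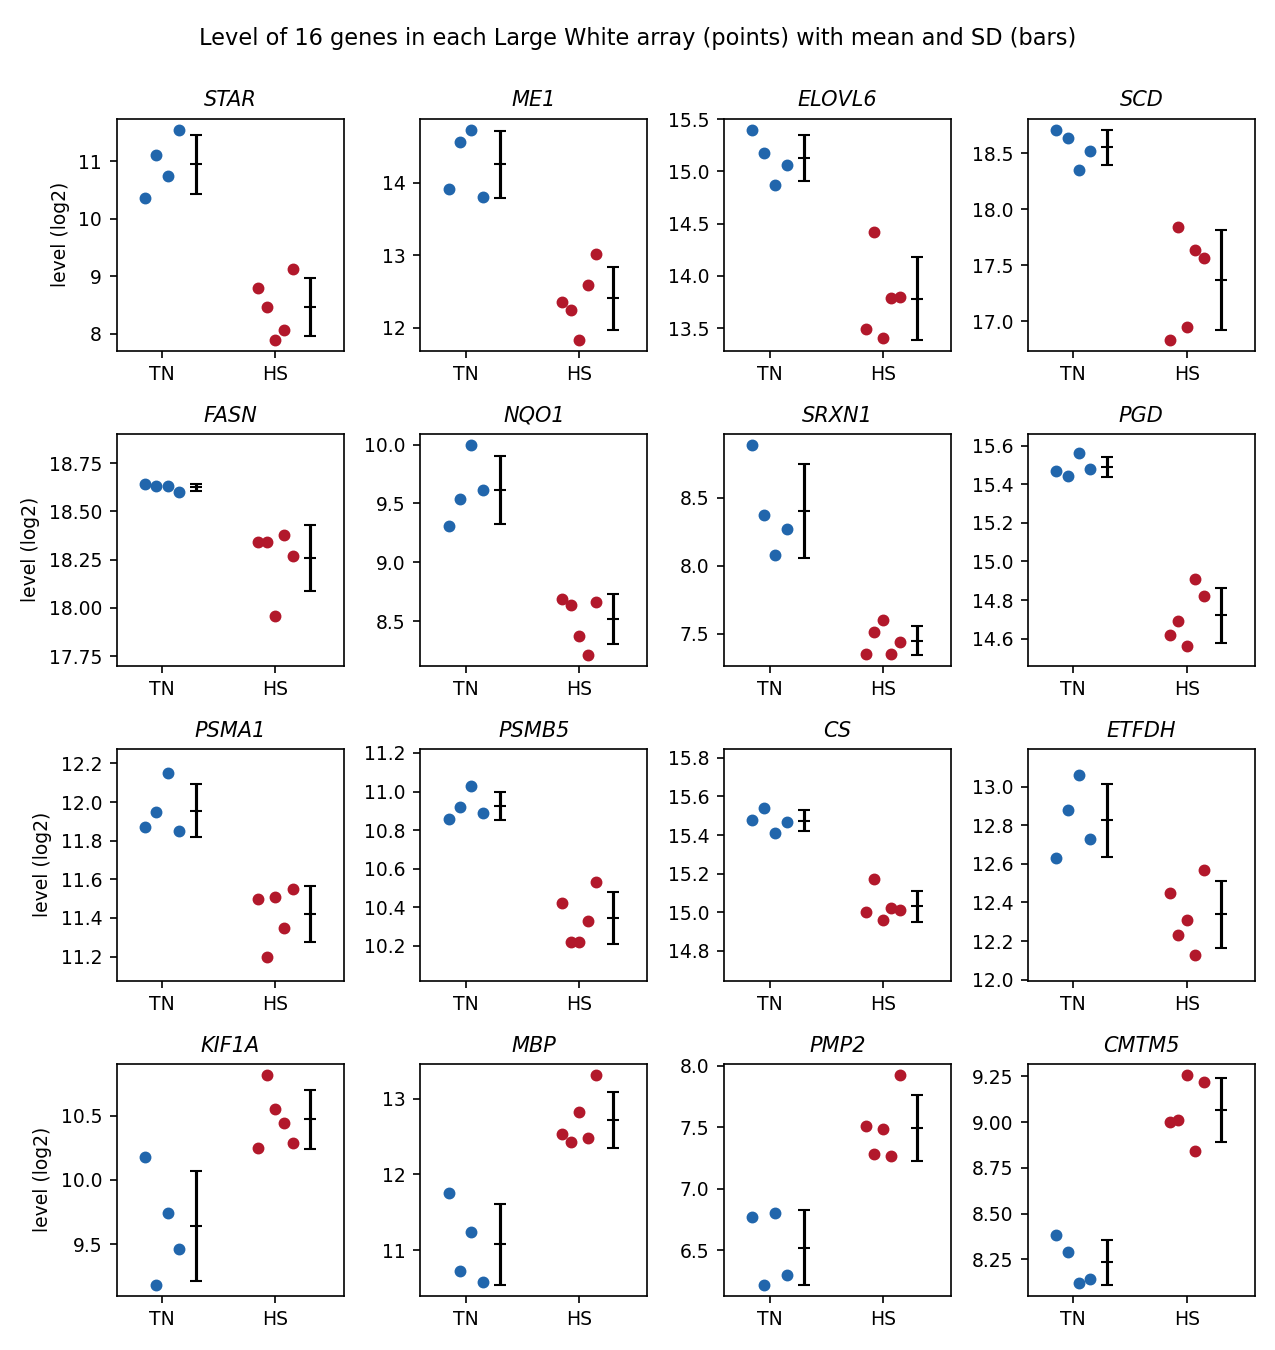
Level (log2, y axis) of 16 genes in each of the 4 TN (blue) and 5 HS (red) Large White arrays, with the mean and SD beside the points. In all 16 the groups do not overlap, the upper 3 rows being lower and the bottom row (KIF1A, MBP, PMP2, CMTM5) higher in HS.

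Further along the route to triglyceride, GPAM and AGPAT1 fell. They catalyse the acylations that begin triglyceride synthesis. GPAM went from 7.0 to 6.36 (change -0.64, adjusted p = 0.0425) and AGPAT1 from 14.74 to 14.14 (change -0.60, adjusted p = 0.0463). They were 2 of 19 genes tested in that list, whose median was -0.19, or -0.32 with the 75th percentile scaling. Neither passed without HS replicate 1, 2, 3 or 4 or without TN replicate 2 or 3. The lipid droplet coat gene PLIN2 changed by -0.70 (adjusted p = 0.212). None of the 14 lipolysis genes passed. In cholesterol synthesis 13 of 17 genes lay below 0, with a median of -0.32, or -0.54 on the 2 slides that held both LW groups. ACAT2, which joins acetyl-CoA units, was also lower, from 9.46 ± 0.296 to 8.57 ± 0.184 (change -0.89, adjusted p = 0.036).

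A few genes passed in each of several mitochondrial lists. In fatty acid oxidation 23 of 25 genes lay below 0, and 3 fell: ECI1, an enoyl-CoA isomerase, by 0.70, ETFDH, which passes electrons from the dehydrogenases to ubiquinone, by 0.48, and ACADM, the medium-chain dehydrogenase, by 0.47. ETFDH read 12.63, 12.88, 13.06 and 12.73 in TN and 12.45, 12.23, 12.31, 12.13 and 12.57 in HS (adjusted p = 0.0114). The gap between its groups was narrow. ETFDH passed without any 1 of the 26 arrays, but not in the LW arrays fitted alone (adjusted p = 0.061). In the TCA cycle 14 of 15 genes lay below 0, and CS, DLD and SDHB fell. CS, the citrate synthase, went from 15.47 ± 0.0543 to 15.03 ± 0.079. The lowest TN array was at 15.41 and the highest HS array at 15.17, with a change of -0.44 ± 0.0875 (adjusted p = 0.0148). DLD, a subunit shared by the pyruvate and 2-oxoglutarate dehydrogenases, changed by -0.65 (adjusted p = 0.0392), and SDHB of complex II by -0.31 (adjusted p = 0.0407). PDHB, a subunit of pyruvate dehydrogenase, went from 15.08 ± 0.221 to 13.96 ± 0.0979 without overlap (change -1.12), but did not pass (adjusted p = 0.0696). Its other probe was called (change -0.67, adjusted p = 0.0364).

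In complex I of the respiratory chain 32 of 34 genes lay below 0 (median -0.20) and NDUFA6 fell by 0.67 (adjusted p = 0.0422). In complexes II to V 23 of 27 lay below 0 (median -0.25), and besides SDHB the ATP synthase subunit ATP5J fell by 0.52 (adjusted p = 0.0148). Of 53 mitochondrial ribosomal proteins none was called. Of these, 42 lay below 0 and the median was -0.18. HIBADH of valine breakdown fell by 0.52 (adjusted p = 0.0394) and PGK1 of glycolysis by 0.64 (adjusted p = 0.0315). The calls in these lists were sensitive to the slide and to the animals left out. With slide as a block ETFDH was the only call of fatty acid oxidation (adjusted p = 0.047), and 0 genes were called in the TCA cycle, in complex I and in complexes II to V. In fatty acid oxidation 1 gene was called without HS replicate 2 or 4 or TN replicate 2 or 3, and 5 without HS replicate 5. In the TCA cycle 1 was called without HS replicate 1, 2, 3 or 4 or TN replicate 3, and 0 without TN replicate 2. NDUFA6 was lost whichever LW array was left out, and without HS replicate 5 there were 3 calls in complex I, all of them other genes. In complexes II to V 1 was called without HS replicate 1, 2, 3 or 4, and 0 without TN replicate 2 or 3. With the 75th percentile scaling 8 genes of fatty acid oxidation and 5 of complex I were called, and the medians of complex I and of complexes II to V were -0.36 and -0.43.

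Of 30 proteasome subunits tested, 29 lay below 0, 6 fell and none rose, and in 15 the HS arrays lay wholly below the TN arrays, where 5.55% of all genes do. The median was -0.28 in LW, and in the scalings and other settings tried it stayed between -0.38 and -0.24. PSMA1, a subunit of the outer ring of the core, read 11.87, 11.95, 12.15 and 11.85 in TN and 11.50, 11.20, 11.51, 11.35 and 11.55 in HS. All HS arrays were lower, with a change of -0.53 ± 0.0887 (adjusted p = 0.00553). PSMB5, which carries the chymotrypsin-like activity, read 10.86, 10.92, 11.03 and 10.89 in TN and 10.42, 10.22, 10.22, 10.33 and 10.53 in HS. Its change was -0.58 ± 0.104 (adjusted p = 0.00963), larger than the range within either group. PSMD14, the deubiquitinase of the lid, fell by 0.73 (adjusted p = 0.0424), PSMB1 by 0.38, PSMA3 by 0.33 and PSMD3 by 0.27. PSMA1 and PSMB5 passed without any 1 of the 26 arrays, while PSMD14 was lost whichever LW array was left out. With slide as a block PSMB5 passed (adjusted p = 0.0462) and PSMA1 did not (adjusted p = 0.0565), and the other call was PSMB7, which was not called without the block. The number called in the list was 2 without HS replicate 2, 3 or 4 or without TN replicate 2, 3 or 4, 3 without TN replicate 1, and 10 with the 75th percentile scaling. The list score was 0.00 to 0.17 in TN and -0.28 to -0.11 in HS.

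Few chaperone genes passed the test. None of 13 HSP70 and HSP110 genes passed, 10 of them lay below 0, and their median was -0.17, or -0.01 on the 2 slides that held both LW groups. None of 6 small heat shock proteins passed. Among 28 HSP40 co-chaperones 20 lay below 0 (median -0.16) and DNAJC4 and DNAJC15 fell, by 0.40 and 0.32. Neither passed without HS replicate 2, 3 or 4 or TN replicate 2, 3 or 4, with slide as a block or in the LW arrays fitted alone. HSP90B1, the HSP90 of the endoplasmic reticulum, rose from 14.05 ± 0.0671 to 14.39 ± 0.114 (change 0.34, adjusted p = 0.0322), and 9 of its 10 probes lay above 0. It was no longer called with the 75th percentile scaling, nor without any LW array except HS replicate 5. The cytosolic HSP90AA1 changed by 0.40 (adjusted p = 0.308), HSPH1 by -0.42 (adjusted p = 0.312) and the transcription factor HSF1 by -0.12. CCT3 of the cytosolic chaperonin fell by 0.37 (adjusted p = 0.0467), a call that was lost whichever LW array was left out and with slide as a block. In the list of endoplasmic reticulum stress genes HSP90B1 was the only call among 24, and XBP1, which encodes a transcription factor of that response, changed by 0.45 (adjusted p = 0.0873).

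**Figure D2:**
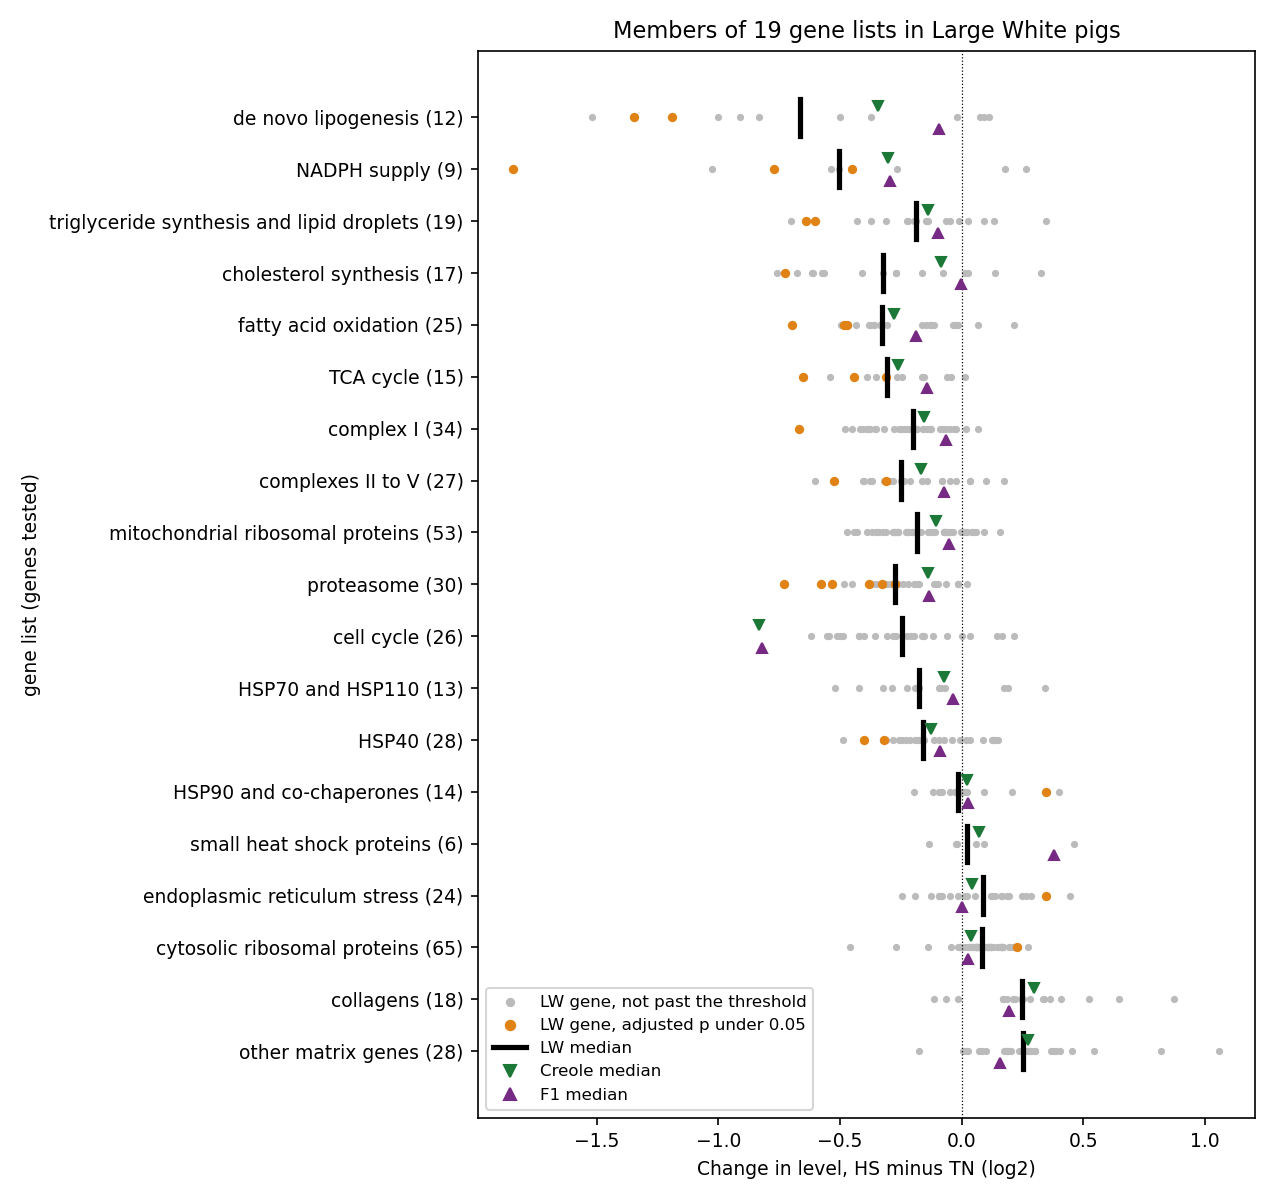
Change of each member of 19 gene lists in Large White pigs (log2, HS minus TN, x axis), with the list names and number of genes tested on the y axis, the LW median as a bar and the Creole and F1 medians as triangles. The LW median is lowest for de novo lipogenesis (-0.67) and NADPH supply (-0.50), and near 0 for the cytosolic ribosomal proteins, where it is 0.09 with quantile normalization and just below 0 with the 75th percentile scaling.

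The largest fall of a named gene was that of STAR, which carries cholesterol into mitochondria as the first step of steroid synthesis. STAR read 10.36, 11.11, 10.75 and 11.55 in TN and 8.79, 8.46, 7.89, 8.06 and 9.12 in HS. Its groups were separated by more than 1, the change was -2.48 ± 0.38 (adjusted p = 0.00326), a 5.57-fold lower level, and all 8 probes were called, between -2.48 and -1.42. It passed without any 1 of the 26 arrays and with slide as a block. The sulfotransferase SULT2A1, which acts on steroids, changed by -2.04 (adjusted p = 0.197), with all HS arrays below the TN arrays. The enzyme that follows STAR, CYP11A1, was at 6.96 ± 0.145 and 6.94 ± 0.104 and did not pass. STAR was the only call among 7 adrenal cortex markers tested. Of the adrenal enzymes, CYP17A1 and CYP11B1 had no named probe among those kept and were not tested, so nothing is known here of their levels. The 2 calls among 11 genes of steroid handling were STAR and AKR1C1, whose value is uncertain as said above. POR, the reductase that supplies electrons to cytochromes P450, is not in that list and fell by 0.60 (adjusted p = 0.0388).

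Among the rises, genes of compact peripheral myelin stood out by size. MBP, which holds the cytoplasmic faces of the membrane together, read 11.76, 10.72, 11.24 and 10.58 in TN and 12.53, 12.43, 12.82, 12.48 and 13.32 in HS. Its change was 1.64 ± 0.305 (adjusted p = 0.0117), and of 10 probes all lay above 0 and 8 were called. PMP2, a fatty acid-binding protein of myelin, read 6.77, 6.22, 6.80 and 6.30 in TN and 7.51, 7.28, 7.49, 7.27 and 7.93 in HS. The groups did not overlap, the change was 0.97 ± 0.228 (adjusted p = 0.0324), and all 3 probes were called.

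Smaller rises were those of CMTM5, a membrane protein of the chemokine-like factor family, by 0.83 ± 0.142 (adjusted p = 0.00764), of KIF1A, a kinesin of axonal transport, by 0.83 ± 0.171 (adjusted p = 0.0177), of MAL, a proteolipid of myelin and epithelia, by 0.65 (adjusted p = 0.0462, a call lost whichever LW array was left out), and of PMP22 by 0.47 (adjusted p = 0.0425). CMTM5 read 8.38, 8.29, 8.12 and 8.14 in TN and 9.0, 9.01, 9.26, 8.84 and 9.22 in HS, and passed without any 1 of the 26 arrays. Its 2 probes have the same sequence and are 1 measurement. Of the 13 tested nerve and Schwann cell markers, 3 rose, MBP and PMP22 among them, and none fell, 9 lay above 0 and the median was 0.20, or 0.09 without TN replicate 1 and 0.34 with slide as a block. The list score was -0.41 to 0.03 in TN and 0.12 to 0.45 in HS. Of the markers that did not pass, 6 lay above 0. SOX10, the transcription factor of Schwann cells, was at 11.92 ± 0.148 and 11.88 ± 0.142, NGFR changed by 0.08, L1CAM by -0.01, and S100B by 0.58 (adjusted p = 0.371) with a missing spot on 1 HS array. How much a different share of nerve in the tissue pieces contributes was not tested. None of the list was called without TN replicate 2, and 1 gene was called without any other LW array except TN replicate 1. The within-slide change of MBP was 0.89 on the slide with 2 HS arrays and 1 TN array and 2.60 on the slide with 1 of each.

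PUSL1, a pseudouridine synthase-like gene, had the largest rise of all named genes. It read 9.62, 9.86, 10.05 and 9.82 in TN and 11.49, 12.30, 12.23, 11.72 and 11.67 in HS, a change of 2.04 ± 0.467 (adjusted p = 0.0284) on its only probe. The HS arrays were above all TN arrays. In F1 the same probe ran from 9.97 to 12.14 in TN and from 9.89 to 12.43 in HS, so that both levels occurred within a group. In Creole it ran from 11.27 to 12.14 in TN and from 11.49 to 12.37 in HS, and no array was near the low level. Its HS minus TN change was 0.23 in Creole and 0.39 in F1.

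The remaining rises named by size were of varied function. BHLHE41, a repressor in the circadian clock, read 9.24, 9.02, 9.23 and 9.57 in TN and 10.28, 9.89, 10.23, 10.02 and 10.08 in HS. It rose by 0.84 ± 0.169 (adjusted p = 0.016) without overlap, although its other probe changed by -0.08. BTG2, an antiproliferative gene, rose by 0.74 (adjusted p = 0.0369) with overlapping groups. IL34, a ligand of the macrophage growth factor receptor, rose by 0.61 (adjusted p = 0.033). LEMD2, of the inner nuclear membrane, read 12.54, 12.43, 12.24 and 12.42 in TN and 13.02, 13.02, 12.94, 13.00 and 13.02 in HS (change 0.59, adjusted p = 0.00772), and its HS arrays were nearly equal. RHOBTB1 rose by 0.67, ELL3 by 0.71 and C8H4orf33 by 0.77. THRA, the thyroid hormone receptor alpha, rose by 0.35 (adjusted p = 0.04996) with overlapping groups. With the 75th percentile scaling its change was 0.21 and did not pass (adjusted p = 0.262). It passed in 1 of the 9 fits that left out an LW array.

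The remaining falls named by size included MLKL, the executor of necroptosis, at 7.40, 7.41, 8.24 and 7.68 in TN and 6.16, 6.02, 6.08, 6.28 and 7.15 in HS (change -1.35 ± 0.277, adjusted p = 0.0177). HS replicate 5 lay well above the other HS arrays but below TN. PDYN, the prodynorphin gene, changed by -1.33 (adjusted p = 0.0174), or by -2.24 with the 75th percentile scaling, and 1 HS array overlapped TN. HLCS, which attaches biotin to carboxylases, fell by 1.12 (adjusted p = 0.0425). STX11, a syntaxin, fell by 1.02, and OXR1, an oxidation resistance gene, by 0.97 (adjusted p = 0.0132). ADIPOR1, an adiponectin receptor, fell by 0.43 (adjusted p = 0.0139) and was the only call among 14 adipokine and receptor genes.

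Several other groups held no call or 1. Collagens (18 genes) and other matrix genes (28 genes) lay mostly above 0, 15 and 27 of them, with medians of 0.25 each (0.13 and 0.14 with the 75th percentile scaling), but their scores overlapped between HS and TN. All 12 fibroblast markers lay above 0 (median 0.27), and none passed. Of 65 cytosolic ribosomal proteins 57 lay above 0, and the median of 0.09 went just below 0 with the 75th percentile scaling. RPS29 rose by 0.23 (adjusted p = 0.0395), but not with that scaling (adjusted p = 0.532). None of 26 cell cycle genes, 27 interferon response genes or 17 genes of the growth hormone and IGF axis passed. The score of the growth hormone and IGF list was nevertheless apart, at 0.00 to 0.09 in TN and 0.16 to 0.22 in HS. The median change of the list was 0.10, or 0.06 with that scaling or without HS replicate 5. It was 0.04 with the mean of all probes of the gene and 0.16 without HS replicate 3.

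Markers of blood and of muscle, which a tissue piece can also hold, are given for the whole lists. Red blood cell markers (7 of 12 tested) lay below 0 in 6 cases, none was called, and their score was 0.08 to 0.26 in TN against -0.25 to -0.04 in HS, without overlap. HBB, the beta globin, changed by -0.92 (adjusted p = 0.183), while HBZ, the zeta globin, fell by 0.91 (adjusted p = 0.0422). The 15 skeletal muscle markers all lay above 0 with a median of 1.71, and none was called. The median was 1.07 with slide as a block, 0.84 on the 2 slides that held both LW groups and 2.25 without TN replicate 2. The score of these markers ran from -2.17 to 0.25 in TN and from -0.70 to 1.71 in HS. TN replicate 2 was the highest TN array and HS replicate 1 the highest of all. CKM, the muscle creatine kinase, was 10.81 to 13.70 in TN and 12.70 to 15.39 in HS. The part of blood and of muscle in the changes above was not tested.

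**Figure D3:**
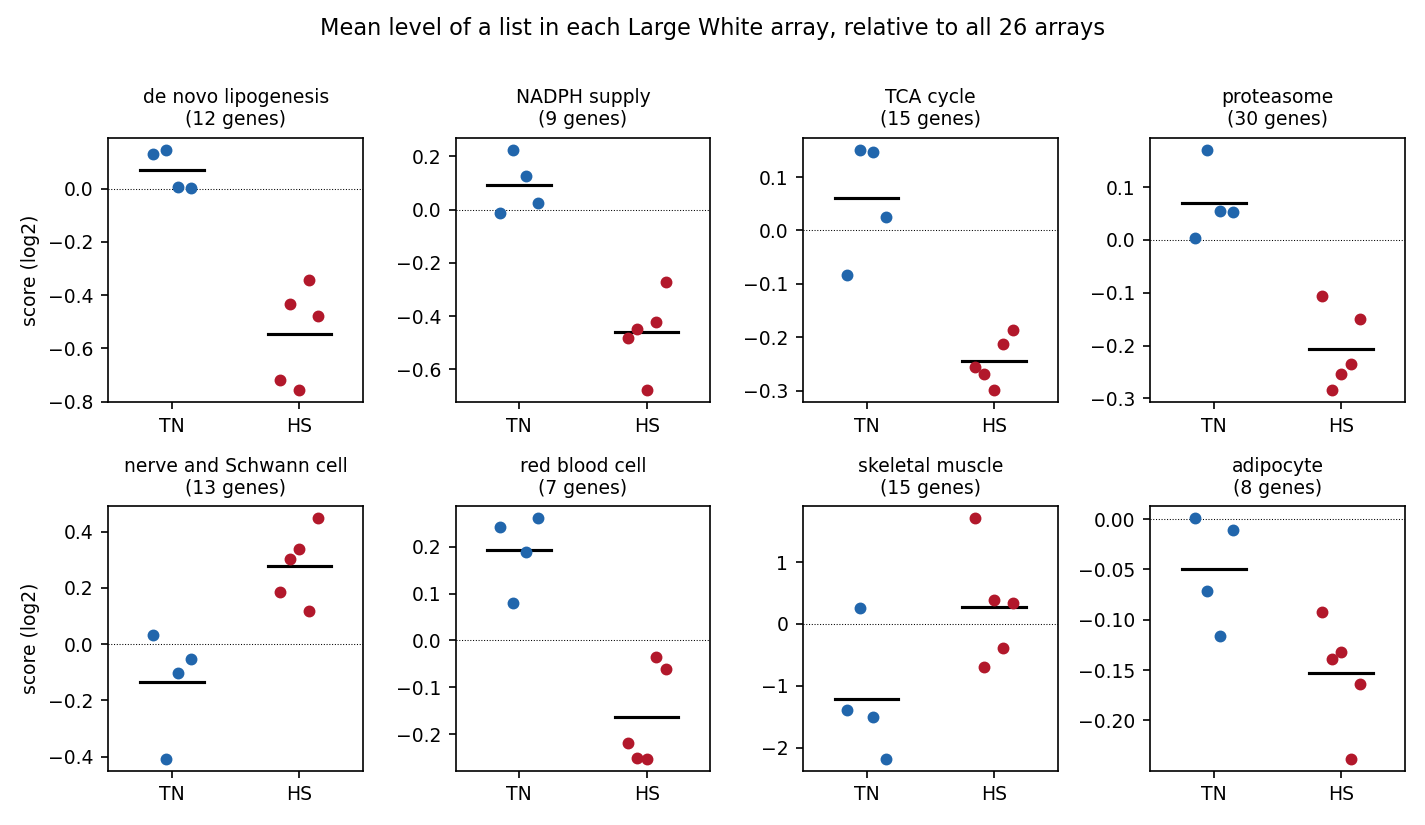
Score (mean log2 level of a list's genes relative to all 26 arrays, y axis) of 8 lists in each Large White array, TN in blue and HS in red, with group means as lines. The scores of de novo lipogenesis, NADPH supply, TCA cycle, proteasome, nerve and red blood cell lists do not overlap between the groups, while those of skeletal muscle and adipocyte do.

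Of the 10 genes that the study names for this tissue, ELOVL6 fell and CYBA, a subunit of the superoxide-forming NADPH oxidase, rose by 0.48 (adjusted p = 0.018) with overlapping groups. As these genes were chosen on the same animals, they are no independent evidence of a direction. The strand of CYBA is not settled, since its other probe is the exact reverse complement and changed by -0.10. The peroxidase PRDX3 changed by -0.44, PLA2G7 by -0.61, AHR by 0.31, SOD1 by -0.25, MAPK6 by -0.05 and SOD2 by -0.04, none of which passed. LPL, the lipase that takes up fatty acids from lipoproteins, changed by -0.15 on its representative probe, while its other 6 probes lay above 0 (up to 0.24) and none was called.

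Whether these changes were particular to Large White pigs was tested as the LW change minus the mean of the Creole and F1 changes. This difference was past the threshold for 2 of 44703 probes (0.00447%) and for 0 of 9957 named genes (0.0%) in limma, with 5.32% of probes and 5.38% of genes at an unadjusted p under 0.05. The heat contrast itself called 24 probes in Creole (0.0537%) and 188 in F1 (0.421%), of which 2 and 36 were also called in LW. Among the 678 LW probes, 94.84% changed in the same direction in Creole and 93.07% in F1, against 64.93% and 62.62% of all probes. Their median absolute change was 0.273 in Creole and 0.251 in F1, and since they were selected on their LW values a larger LW change is built in.

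For several of the leading genes, though not for MLKL below, the values in the other breeds lay on the same side but were smaller. STAR changed by -1.38 in Creole and -0.69 in F1, ME1 by -1.33 and -0.74, ELOVL6 by -0.82 and -0.39, NQO1 by -0.58 and -0.86, and MBP by 0.87 and 0.85. None of these differences from LW passed the adjusted test. The median of de novo lipogenesis was -0.34 in Creole and -0.09 in F1, that of the proteasome -0.14 and -0.13. For the cell cycle genes the LW median was the smaller, with -0.25 in LW (-0.15 without HS replicate 5 and -0.39 with slide as a block) against -0.83 and -0.82. Of these 26 genes 15 had an unadjusted p under 0.05 for the difference, and none passed the adjusted test. Among named genes the smallest p-values of the difference were those of PIGL (unadjusted p = 0.000114), TRIT1, PRC1, MEOX2 and MLKL. PIGL, an enzyme of GPI-anchor synthesis, changed by -0.57 in LW, 0.05 in Creole and 0.44 in F1, and MLKL by -1.35 in LW, 0.00 in Creole and 0.15 in F1.

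Both probes that passed have no gene name here. They were singled out after their values were seen, and the first 30 of their 60 bases identify them:
A_72_P123631: ccttgtgatttctatttttaacttcactta
A_72_P257132: agaccactcttgacctgacttttcggtctt
A_72_P123631 read 7.62, 7.75, 7.91 and 7.62 in LW TN and 6.50, 6.26, 6.54, 6.68 and 6.85 in LW HS, while all 22 arrays other than LW TN lay between 6.26 and 6.85. The LW TN arrays alone stood apart. The LW change was -1.16 ± 0.102 and the difference from the other breeds -1.13 (adjusted p = 0.000239). A_72_P257132 read 7.44, 7.53, 7.40 and 7.46 in LW TN and 8.47, 8.49, 8.69, 8.73 and 8.51 in LW HS. Its Creole arrays ran from 7.79 to 8.64 and its F1 arrays from 7.88 to 8.30, all above LW TN, and the highest of Creole reached the LW HS range. The LW change was 1.12 ± 0.126 and the difference 1.00 (adjusted p = 0.0356). The call of this difference was lost with slide as a fixed block, with normexp background and with the 75th percentile scaling. It was also lost whichever LW array was left out, while that of A_72_P123631 remained in all these settings.

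**Figure D4:**
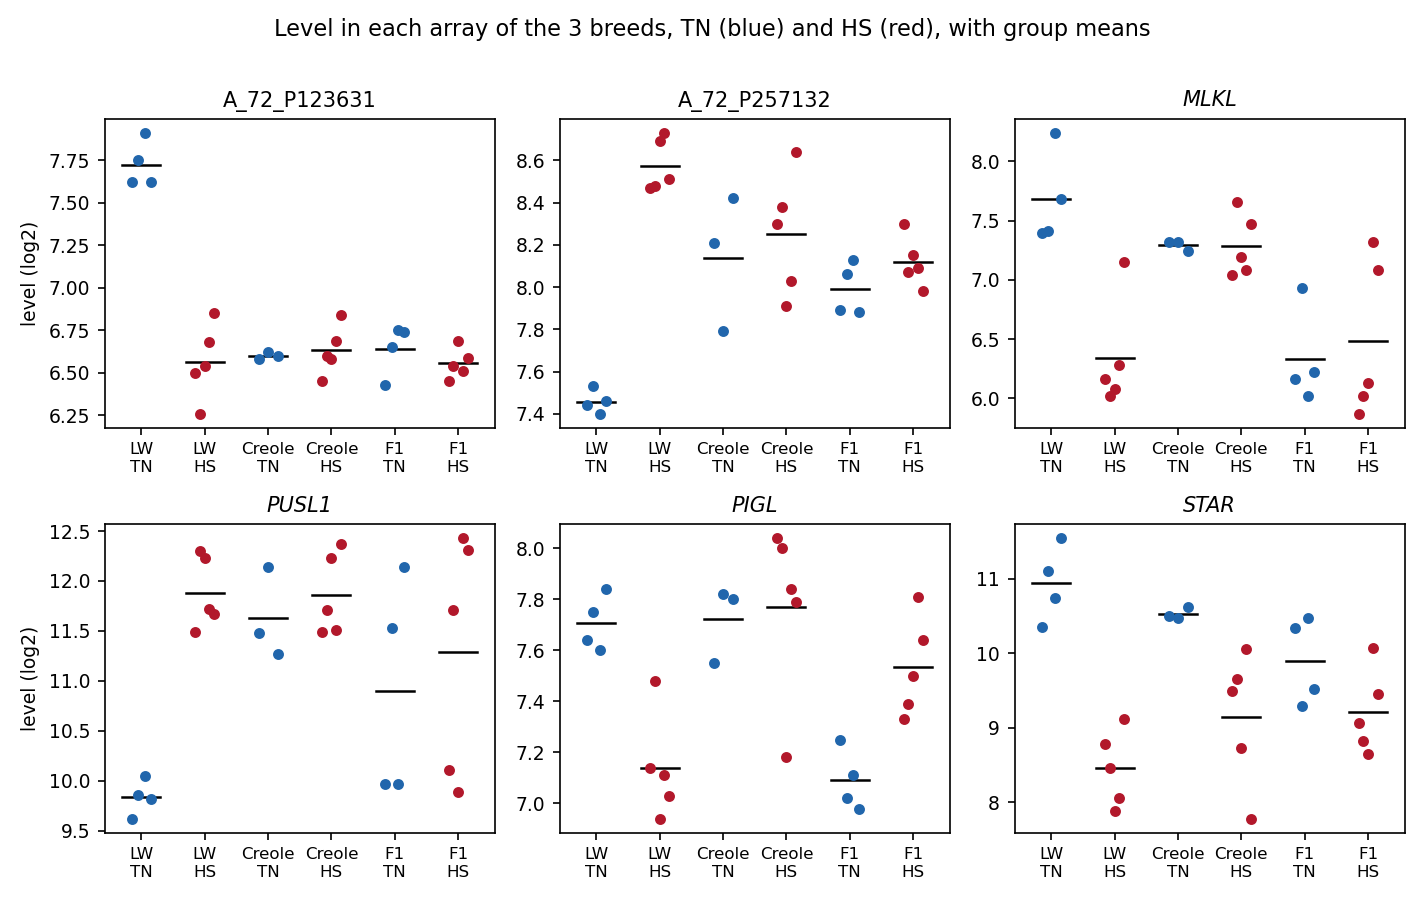
Level (log2, y axis) of the 2 probes that passed the test of the difference between breeds and of MLKL, PUSL1, PIGL and STAR in every array of the 6 groups (x axis), TN in blue and HS in red, with group means as lines. The LW TN arrays of A_72_P123631 lie between 7.62 and 7.91, above the other 22 arrays, and PUSL1 takes low and high levels in both F1 groups.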

How the data were processed

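RNA of dorsal subcutaneous fat was labelled with 1 dye and hybridised to a porcine Agilent array, 1 animal per array. The authors deposited the scanner output of each of 26 arrays, which holds spot and background intensities and quality flags, made with Agilent Feature Extraction 10.10.1.1 per the submitters' processing notes. The authors also deposited a table of log2 values, quantile-normalized with a filter whose rule is not given in the sources used here. That table served as an alternative: over 44104 matched probes the lowest correlation with the values used here was 1 and the median difference was -0.00776.

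Median spot intensities were quantile-normalized over the 26 arrays and taken as log2, with no background subtraction. A probe was kept where at least 8 arrays read it well above background. Spots flagged as non-uniform were set to missing, and no spot was saturated. The normexp alternative started from mean spot and median background intensities. The 75th percentile scaling started from the processed signal of Feature Extraction instead of the median intensity. Shifts under that setting therefore cannot be put down to the scaling alone. Means of the 6 breed and temperature groups were fitted with limma 3.58.1 in R 4.3.3 (lmFit, and eBayes with an intensity trend), and HS was compared with TN within LW. Adjustment followed Benjamini and Hochberg across the 44703 probes, the threshold was 0.05, and every adjusted p in the text comes from limma. The same fit gave the LW change minus the mean of the Creole and F1 changes. Slide (5 slides, each also 1 scan batch) was tested as a block. Of the LW arrays, HS replicates 1 and 2 were on slide 2, HS 3, HS 4 and TN 1 on slide 3, HS 5 and TN 2 on slide 4, and TN 3 and TN 4 on slide 5. The number of arrays limits the precision.

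Probes were named through the RefSeq table of Sscrofa11.1, by accession (9661), symbol (14220) or synonym (203). Those matching several genes (39) or none (36182) stayed unnamed. A gene stands for its probe with the highest mean over the 26 arrays. Named are the 15 largest rises and 15 largest falls past the threshold, the called members and the largest change of each list, the 10 genes the study names, and the 5 genes with the smallest p for the difference between breeds. Other genes are named after their values were seen, and some items that the rule names are not reported here. These members, 42 function lists and 13 marker lists (1125 genes) were chosen with earlier results of these data known. A list's score is the mean of its members' levels after each is centred over the 26 arrays. The steps were tested on simulated data. Alternatives changed the slide term, the background correction, the scaling, the filter, the variance prior, the array weights, the probe of a gene and the arrays left out. Tables and figures were made with pandas 2.3.3, numpy 2.4.6 and matplotlib 3.10.9.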

Additional observations from a re-analysis of the deposited data

Results flagged for a closer look

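Single arrays lay apart from the rest of their LW group for 11 of 226 combinations of a group with a named gene, probe or marker score (4.87%), and chance alone flags about 1 in 20. The figure given for each is the gap to the nearest array as a share of the group's range. In HS, C8H4orf33 was lowest in replicate 5 (8.03 against 8.91 to 9.10, share 0.83), LEMD2 was lowest in replicate 3 (12.94 against 13.00 to 13.02, share 0.75), and FASN was lowest in replicate 3 (17.96 against 18.27 to 18.38, share 0.738). MLKL was highest in HS replicate 5 (7.15 against 6.02 to 6.28, share 0.771) and CS highest in HS replicate 2 (15.17 against 14.96 to 15.02, share 0.714). HS replicate 2 was also lowest for PSMD14 (10.57 against 10.79 to 10.86, share 0.759) and for OAS1, an interferon-induced gene (6.93 against 10.74 to 12.07, share 0.741). HS replicate 4 was lowest for DNAJC12 (7.88 against 8.36 to 8.43, share 0.873).

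In TN, STX11 was highest in replicate 4 (9.27 against 8.80 to 8.87, share 0.855). TN replicate 2 was highest for RPS29 (17.64 against 17.39 to 17.43, share 0.84) and for PSMB1 (13.57 against 13.33 to 13.36, share 0.875).

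For 2 probes the HS minus TN change differed between LW and the other breeds in the limma test of the difference, A_72_P123631 by -1.13 and A_72_P257132 by 0.997.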

How the results depend on the processing

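The number of LW probes past the threshold, 678, was 114 with slide as a fixed block (102 shared with the 678) and 1212 with array weights. With alternatives chosen after seeing the data it was 8 on the 2 slides that held both LW groups and 3 when slide was also a block, and leaving out 1 of the 26 arrays it ranged from 111 to 1141. The lowest count was without LW TN replicate 2 and the highest without Creole HS replicate 5. It was 243 without HS replicate 2, 343 without HS replicate 3, 391 without HS replicate 1, 225 without HS replicate 4, 203 without TN replicate 3 and 361 without TN replicate 4. The other settings gave 475 to 981 probes. The count for the difference between breeds, 2, was 1 with slide as a fixed block, normexp, the 75th percentile scaling or the 2 slides alone, 0 on these slides with the block, and 1 to 3 on leaving out an array. Of 61 called named genes none changed sign in any setting. Of these, 11 were called with the slide block, 43 in LW arrays alone, 35 without the filter, 41 with the mean of all probes, and 0 on the 2 slides. Uncalled genes that changed sign were LPL, at 0.14 with the mean of all probes and 0.19 and 0.18 on the 2 slides without and with the block, and SOD2, at 0.15 with the slide block and 0.315 and 0.312 on the 2 slides. On leaving out an array, SOD2 ranged from -0.16 to 0.15, MAPK6 from -0.12 to 0.0188 and OAS1 from -0.96 to 0.32. The difference in the share of spots above background ranged from 0.309 to 1.51 percentage points without 1 LW array, an alternative added later. The causes were not tested. No paired analysis was possible because the labels give no replicate numbers, and the numbers used here only name the animals. Probes not well above background limit what can be seen of low genes.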

Other observations

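The list of xenobiotic sensing held 3 calls among 15 genes, all described above, as CYBA rose and NQO1 and POR fell. Of these, 1 was called without TN replicate 2 or 3 or with slide as a block. Thyroid hormone handling and targets held 2 calls among 13, the rise of THRA and the fall of ME1. None was called without HS replicate 2 or TN replicate 2 or 3 or with the block, and ME1 alone with the 75th percentile scaling. The median of this list was -0.05 (0.02 without TN replicate 4). Its score was 0.05 to 0.13 in TN and -0.13 to -0.03 in HS, without overlap. ME1, also a member of NADPH supply, had the lowest change of the list (-1.84) and weighs heavily on this score. Several other lists held no call. Antigen presentation held no call among 22 genes, with 17 above 0 and a median of 0.14, or 0.05 with the 75th percentile scaling. Of 14 genes of the glucocorticoid receptor and its targets none passed (median 0.13, which was 0.01 without HS replicate 3 and 0.02 with slide as a block or the 75th percentile scaling), nor did any of 23 inflammatory cytokine and chemokine genes, 15 iron handling genes or 17 insulin signalling genes. Sugar transport and fructose use lay below 0 for 11 of 12 genes without a call (median -0.13, which was -0.06 without TN replicate 2 and -0.27 on the 2 slides that held both LW groups), and the largest change was that of SLC2A5, the fructose transporter, at -1.50 (adjusted p = 0.168). In fatty acid uptake 10 of 13 lay below 0 (median -0.09, or -0.04 without TN replicate 3 and -0.19 with the 75th percentile scaling).

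Marker lists of leukocytes held no call in LW. Macrophage markers lay above 0 for 10 of 11 genes (median 0.18, from 0.09 without TN replicate 4 to 0.32 without HS replicate 2), T cell markers below 0 for 6 of 8 (median -0.12) and neutrophil markers below 0 for 4 of 6 (median -0.05). The T cell median was 0.01 with slide as a block and -0.04 without TN replicate 4, and the neutrophil median was 0.12 without HS replicate 3 and -0.31 without HS replicate 4. Endothelial markers had a median of 0.14, or 0.05 with the 75th percentile scaling. Smooth muscle and pericyte markers had one of 0.14 (0.07 without TN replicate 2). Neither list held a call.

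Genes named here after their values were seen include LPCAT3, TECR and ECHDC1 of lipid metabolism, which fell by 0.68, 0.62 and 0.67, the peroxisomal genes ABCD3 and PEX3, which fell by 0.69 and 0.51, and the proteasome activator PSME4, which fell by 0.55. INHBA, an activin subunit, rose by 0.42 and passed without any 1 of the 26 arrays.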
